A study of Mus musculus with 14 samples.

Results

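The genes described here are 29 named genes of cholesterol synthesis, of the sterol regulatory element binding proteins (SREBPs) and of fatty acid synthesis, measured in mouse pancreatic islets. They were chosen by name, through the probe sets whose platform annotation gives exactly 1 gene symbol, and where a gene had several such probe sets the brightest over all arrays was used. Of the 29 genes 28 were measured, among 18820 genes tested in all, and Acat2 was not analysed here. The 28 comprise 6 enzymes of the isoprenoid arm of the mevalonate pathway, 9 enzymes from squalene to cholesterol, 5 SREBP factors and regulators, 1 sterol carrier and 7 lipogenesis genes. All 28 lay, on average, above the dim threshold of 3.96, the median of the array medians.

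Islets came from mice lacking Tlr2 and Tlr4 (double knockout, DKO; background C57BL/6) and from wild-type C57BL/6 mice (WT), with 1 array and, by the labels' wording, 1 mouse per sample. Every mouse, WT included, ate a high-fat diet with 60% fat from 6 weeks of age, and no group on another diet was analysed here. The groups were DKO after 7 months on the diet (4 arrays), WT after 7 months (4), DKO after 5 weeks (2) and WT after 5 weeks (4). Mice at 7 months were also older, so time on the diet and age cannot be told apart. The knockout alleles, and whether DKO and WT mice were littermates, are not given in the sources used here.

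Values are log2 signals made by robust multi-array averaging (RMA), and a difference of 1 on this scale is a 2-fold change. A gene was called when its limma adjusted p was below 0.05, with p-values adjusted by Benjamini-Hochberg over all 18820 genes, and errors of differences are SEs of that fit. The number of arrays limits the precision. In whole islets, fewer cells of a type and less RNA per cell cannot be told apart.

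Tlr2 lay at 5.18 to 5.41 in DKO islets against 6.24 to 6.53 in WT islets at 7 months, and at 4.77 and 4.82 in DKO islets against 6.22 to 6.62 in WT islets at 5 weeks. Tlr4 differed between DKO and WT islets by 0.31 ± 0.16 at 7 months and by 0.35 ± 0.20 at 5 weeks and was not called (limma adjusted p = 0.331 and 0.506). It was at no more than 3.60 in every array, below the array medians, and the deleted stretch of the gene is not known here, so Tlr4 does not check the labels. The beta cell gene Ins2 lay at 11.76 to 11.99 in every array, while the 9 beta cell genes, each centred over the arrays, averaged -0.16, 0.12, -0.19 and -0.18 in DKO islets against 0.03 to 0.09 in WT islets at 7 months, and none of the 9 was called between genotypes. Among them the glucose transporter gene Slc2a2 lay at 11.43, 11.88, 10.84 and 10.82 in DKO against 11.74 to 12.01 in WT islets at 7 months (limma adjusted p = 0.0568). RNA of other pancreatic cells varied between arrays. The 15 measured acinar genes, each centred over the arrays, averaged -0.03 to 0.41 in DKO and -2.40 to 0.85 in WT islets at 7 months, and 0.88 to 1.27 in DKO and -1.55 to 0.62 in WT islets at 5 weeks. The 10 genes of stellate cells, pericytes and fibroblasts averaged 0.27 to 0.94 in DKO islets at 7 months, above the -0.42 to -0.19 of WT islets, and the 9 macrophage genes -0.00 to 0.63 against -0.17 to -0.06. The 4 alpha cell genes averaged -0.74 to -0.56 in DKO and -0.12 to 0.02 in WT islets at 7 months, and 0.11 to 0.41 in DKO and 0.49 to 0.63 in WT islets at 5 weeks. At 7 months 3 of the 4 were called lower in DKO than in WT islets, where 4.71% of all genes were called. The other, Ttr, lay at 12.28, 11.60, 12.53 and 12.46 in DKO against 11.86 to 12.13 in WT islets. The 3 delta cell genes averaged -1.07 to -0.79 in DKO and -0.05 to 0.18 in WT islets at 7 months, and 0.38 to 0.51 in DKO and 0.57 to 0.82 in WT islets at 5 weeks. The 2 PP cell genes averaged -1.16 to -0.52 in DKO and -0.06 to 0.40 in WT islets at 7 months, and 0.47 to 0.58 in DKO and 0.40 to 0.52 in WT islets at 5 weeks. Of 7 endothelial genes 4 rose over time in DKO islets, where 4.86% of all genes rose. In WT islets 2 of the 7 rose, where 255 of all 18820 genes did. The 7 genes averaged 0.20 to 0.41 in DKO and -0.01 to 0.12 in WT islets at 7 months. At 5 weeks they averaged -0.39 to -0.11 in DKO and -0.30 to -0.08 in WT islets. At 7 months 2 were called higher and 1 lower in DKO than in WT islets, where 4.71% of all genes were called. The part of these cell types in the results below was not tested, apart from a fit with the acinar score as a covariate.

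Cholesterol is built from acetyl-CoA through mevalonate and isoprenoid phosphates to squalene, which is closed to lanosterol and trimmed to cholesterol. When sterols in the endoplasmic reticulum run low, SCAP escorts SREBPs to the Golgi, where proteases release the factor that switches on these enzymes; INSIG proteins hold SCAP back when sterols are plentiful. SREBP-2, from Srebf2, acts mainly on the sterol enzymes, and SREBP-1, from Srebf1, mainly on the enzymes that make and desaturate fatty acids. SREBPs act together with the CCAAT-binding factor NF-Y and with Sp1, which binds GC boxes.

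Upstream sequences of 5 genes, from RefSeq on mouse build GRCm38.p6, are shown 5′ to 3′ on the gene's strand over the 250 bases before the start, with CCAAT on either strand (ATTGG as read) and TCACNCCAC in capitals. Hmgcs1 (HMG-CoA synthase, at the head of the mevalonate pathway), Idi1 (isopentenyl diphosphate isomerase) and Insig1 (the sterol-sensing retention protein) are shown because their values spread widely among DKO arrays at 7 months. Hsd17b7 (a sterol ketoreductase) and Me1 (NADP-dependent malic enzyme, a source of NADPH) are shown because they passed a test. The windows are chr13:119690101-119690350 (+) for Hmgcs1, chr13:8885356-8885605 (+) for Idi1, chr5:28071162-28071411 (+) for Insig1, chr1:169969206-169969455 (-) for Hsd17b7 and chr9:86695915-86696164 (-) for Me1.
Hmgcs1: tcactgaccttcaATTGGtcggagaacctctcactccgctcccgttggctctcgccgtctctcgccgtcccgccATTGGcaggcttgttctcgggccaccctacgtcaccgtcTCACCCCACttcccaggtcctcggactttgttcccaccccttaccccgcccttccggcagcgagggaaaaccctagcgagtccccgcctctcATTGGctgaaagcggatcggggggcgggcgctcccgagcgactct
Idi1: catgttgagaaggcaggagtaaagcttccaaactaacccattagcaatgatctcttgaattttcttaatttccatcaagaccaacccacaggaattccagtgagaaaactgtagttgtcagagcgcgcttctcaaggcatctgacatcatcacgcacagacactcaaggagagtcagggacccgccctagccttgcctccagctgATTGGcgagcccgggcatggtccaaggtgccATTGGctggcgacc
Insig1: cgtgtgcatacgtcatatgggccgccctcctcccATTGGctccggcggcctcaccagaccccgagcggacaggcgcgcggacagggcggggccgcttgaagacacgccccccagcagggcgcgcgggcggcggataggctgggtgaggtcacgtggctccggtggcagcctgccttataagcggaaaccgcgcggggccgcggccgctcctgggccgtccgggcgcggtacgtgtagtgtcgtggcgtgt
Hsd17b7: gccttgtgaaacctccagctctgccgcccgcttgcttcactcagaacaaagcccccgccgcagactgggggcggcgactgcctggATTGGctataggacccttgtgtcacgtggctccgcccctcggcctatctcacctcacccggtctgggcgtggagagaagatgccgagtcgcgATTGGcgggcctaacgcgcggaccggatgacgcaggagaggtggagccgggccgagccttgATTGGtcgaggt
Me1: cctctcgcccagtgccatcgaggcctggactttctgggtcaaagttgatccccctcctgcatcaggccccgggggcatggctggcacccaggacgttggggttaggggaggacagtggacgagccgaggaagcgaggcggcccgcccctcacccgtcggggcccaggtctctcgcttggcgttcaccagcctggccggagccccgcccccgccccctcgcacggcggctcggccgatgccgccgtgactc

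The Hmgcs1 window holds 3 CCAAT boxes and 1 match to TCACNCCAC, the Idi1 window 2 CCAAT boxes, the Insig1 window 1 and the Hsd17b7 window 3. The Me1 window shown holds none, while another window listed for Me1 holds one. Of the 28 genes 22 had an entry in the promoter table; Fdps, Fdft1, Sqle, Stard4, Scd1 and Scd2 did not. CCAAT occurred on either strand in 18 of these 22 genes (81.8%), against 37.5% of all 27025 genes with an entry. It occurred in 19 of their 31 windows (61.3%) against 33.8% of all 32851 windows of the same length. The GC box GGGCGG occurred in 67.7% of their windows against 32.7% of all windows, and the E-box CACGTG in 12.9% against 6.02%. TCACNCCAC occurred in 1 of the 22 genes, Hmgcs1 (4.55%, against 1.22% of all genes). It occurred in 1 of the 31 windows (3.23%, against 1.05% of all windows). Overlaps between motifs were not removed, and a match describes letters in a window only.

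Scd1, which makes monounsaturated from saturated fatty acyl-CoA, was the member that differed most over time on the diet. It lay at 3.88, 4.16, 3.03 and 4.45 in DKO islets at 7 months, against 5.42 and 6.28 in DKO islets at 5 weeks. In WT islets it lay at 3.63, 4.09, 4.04 and 3.74 at 7 months, against 4.93, 5.16, 4.86 and 5.37 at 5 weeks. In both genotypes every 7-month array was below every 5-week array. Scd1 fell by 1.98 ± 0.31 in DKO islets (3.93-fold lower, limma adjusted p = 0.00164) and by 1.21 ± 0.26 in WT islets (2.31-fold lower, adjusted p = 0.0226). The 7-month means, 3.88 in DKO and 3.87 in WT islets, are below the array medians of 3.89 to 3.98, so the sizes of these falls are not exact. The fall in DKO islets passed the test under all 24 alternative settings, with differences of -2.41 to -1.54. The fall in WT islets passed under 19 of 24, with differences of -1.28 to -1.11; it was not called with the acinar score as a covariate (adjusted p = 0.0568), without replicate 2 (0.0687) or 4 (0.0681) of WT at 5 weeks, or without replicate 1 (0.0836) or 4 (0.0675) of WT at 7 months. The difference between the genotypes in this fall was -0.77 ± 0.41 and was not called (limma adjusted p = 0.563).

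Fat cells express Scd1, so adipocyte genes are given beside it. Of 8 adipocyte genes 6 were measured. The list averaged 0.00 to 0.24 in DKO and -0.03 to 0.08 in WT islets at 7 months, and -0.25 to -0.13 in DKO and -0.11 to -0.01 in WT islets at 5 weeks. The adipocyte hormone genes Adipoq and Lep were below every array median in all 14 arrays, at no more than 2.75 and 2.65. Fabp4, which fat cells, macrophages and endothelial cells express, was higher at 7 months in DKO (1.32 ± 0.20, limma adjusted p = 0.00144) and WT islets (1.05 ± 0.17, adjusted p = 0.00367). Fabp4 was the 1 gene of the 6 called over time in either genotype. Of all genes 7.57% were called over time in DKO and 2.37% in WT islets. In WT islets 4 of the 6 genes had negative differences over time, with a median of -0.05 over the list. In DKO islets 1 of the 6 did, with a median of 0.19. The part of fat cells in the Scd1 difference was not tested.

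The second desaturase, Scd2, differed in the same direction without passing the test, by -0.52 ± 0.22 in DKO islets (limma adjusted p = 0.172) and by -0.32 ± 0.18 in WT islets (adjusted p = 0.443). Fads2, the delta-6 desaturase of polyunsaturated fatty acid synthesis and no member of the 29, fell in both genotypes. It lay at 5.93, 5.10, 5.48 and 5.51 in DKO islets at 7 months, against 6.20 and 6.75 at 5 weeks, and at 5.17, 5.31, 5.70 and 5.38 in WT islets at 7 months, against 6.72 to 6.83 at 5 weeks. The groups did not overlap in either genotype. Fads2 fell by 0.98 ± 0.20 in DKO islets (1.97-fold lower, limma adjusted p = 0.00824), a call lost without replicate 2 of DKO at 5 weeks (-0.70, adjusted p = 0.103) and in a fit of the DKO arrays alone (adjusted p = 0.0914). In WT islets it fell by 1.39 ± 0.16 (2.61-fold lower, limma adjusted p = 0.000397), a call kept under all 24 alternatives. The difference between genotypes, 0.41 ± 0.26, was not called (adjusted p = 0.639). Fads1, its partner desaturase, differed by -0.31 ± 0.12 in DKO and -0.26 ± 0.10 in WT islets and was not called (limma adjusted p = 0.150 and 0.230).

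**Figure D1:**
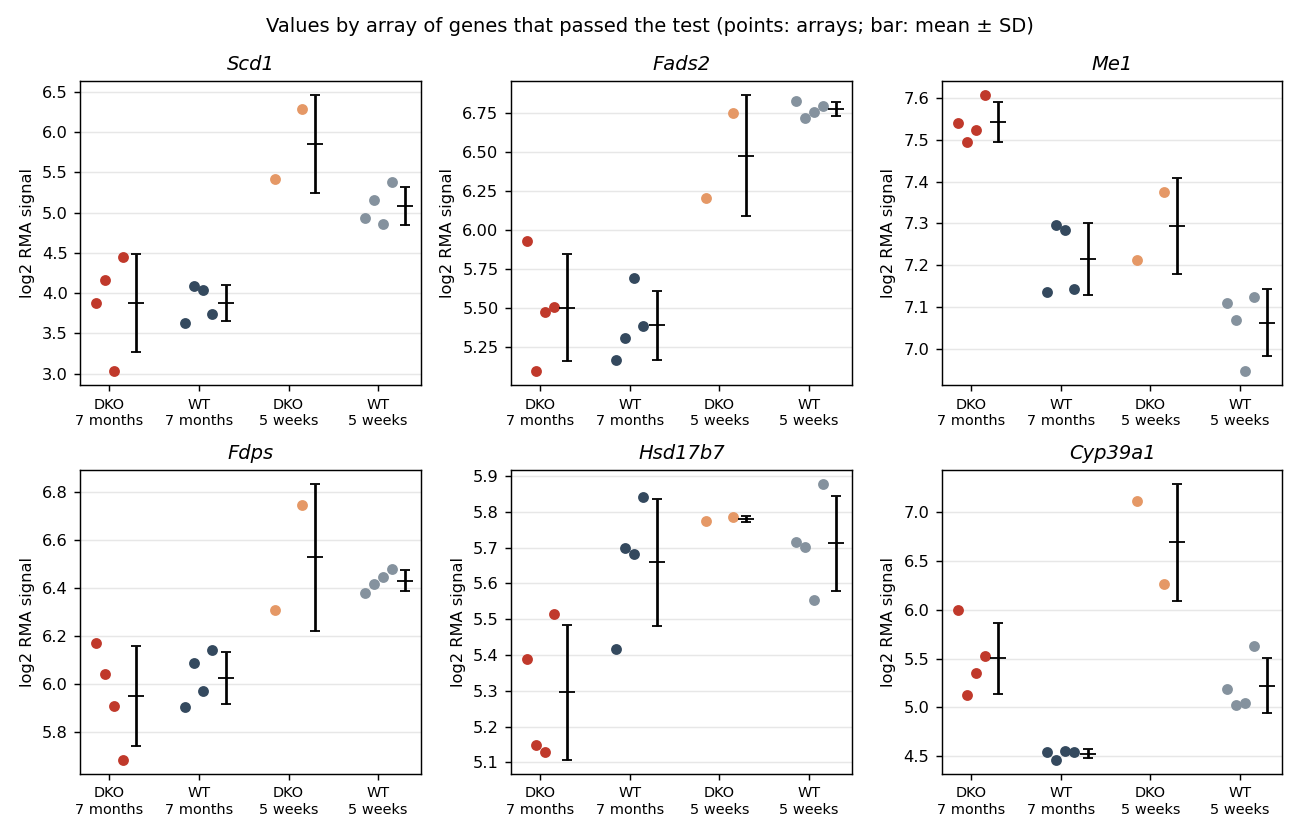
Points are single arrays and bars the mean ± SD on the log2 RMA scale, for Scd1, Fads2, Me1, Fdps, Hsd17b7 and Cyp39a1 in DKO and WT islets at 7 months and at 5 weeks (vertical axes do not start at 0). Every 7-month array of Scd1 lies below every 5-week array, and Me1 lies at 7.50 to 7.61 in DKO against 7.14 to 7.30 in WT islets at 7 months.

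Of the 28 members 3 fell and none rose in DKO islets between the times, a share of 10.7%, where 2.7% of all genes tested fell and 7.57% changed in either direction. In WT islets 1 of 28 fell (3.57%), where 1.01% of all genes fell and 2.37% changed. At an unadjusted p below 0.05 there were 8 members in DKO (28.6%, against 21.5% of all genes) and 4 in WT islets (14.3%, against 14.6%). The median difference of the members was -0.13 in DKO and -0.06 in WT islets, against 0.02 and 0.03 over all genes. Members whose 7-month arrays all lay below their 5-week arrays numbered 6 in each genotype (21.4%), where this held for 11.1% of all genes in DKO and 3.66% in WT islets. The DKO count rests on 2 arrays at 5 weeks.

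Among the 15 sterol synthesis enzymes, differences over time were negative for 11 in DKO and 12 in WT islets, with medians of -0.13 and -0.16. Positive differences made up 26.7% in DKO and 20.0% in WT islets, against 53.7% and 56.8% of all genes. Passing the test were 2 in DKO islets, Fdps and Hsd17b7 (13.3%, where 2.7% of all genes fell), and none in WT islets. In each genotype 3 (20.0%) had an unadjusted limma p below 0.05, against 21.5% of all genes in DKO and 14.6% in WT islets. Fdps, which makes farnesyl diphosphate, lay at 6.17, 6.04, 5.91 and 5.68 in DKO islets at 7 months, against 6.31 and 6.74 at 5 weeks. In WT islets Fdps lay at 5.90, 6.09, 5.97 and 6.14 at 7 months, against 6.38 to 6.48 at 5 weeks. The times did not overlap in either genotype. Fdps fell by 0.58 ± 0.14 in DKO islets (1.49-fold lower, limma adjusted p = 0.0204). That call was lost without replicate 2 of DKO at 5 weeks (-0.36, adjusted p = 0.212), in a fit of the DKO arrays alone (0.159) and with a replicate block (0.0683). In WT islets the Fdps difference of -0.40 ± 0.11 was not called (limma adjusted p = 0.0865), though it was in a fit of the WT arrays alone (0.0212) and with array weights (0.0350). The difference between genotypes was -0.17 ± 0.18 (adjusted p = 0.806).

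Hsd17b7 lay at 5.39, 5.15, 5.13 and 5.52 in DKO islets at 7 months, against 5.77 and 5.78 at 5 weeks, with no overlap. In WT islets it lay at 5.42 to 5.84 at 7 months and 5.55 to 5.88 at 5 weeks, which overlap. It fell by 0.48 ± 0.14 in DKO islets (1.40-fold lower, limma adjusted p = 0.0440), and this call was lost under 13 of 24 alternatives, with adjusted p of up to 0.219. Removing either of 2 WT arrays at 5 weeks (replicates 1 and 2), either of 2 at 7 months (replicates 2 and 3), either DKO array at 5 weeks or replicate 1, 2 or 3 of DKO at 7 months was enough, while the difference stayed between -0.56 and -0.43. In WT islets the difference was -0.05 ± 0.11 (adjusted p = 0.878), and the difference between genotypes was -0.43 ± 0.18 (limma adjusted p = 0.413).

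The other enzymes of the isoprenoid arm were not called over time. Mvk (mevalonate kinase) differed by -0.38 ± 0.16 in DKO and -0.16 ± 0.13 in WT islets, Hmgcs1 by -0.19 ± 0.22 and -0.16 ± 0.18, and Idi1 by -0.06 ± 0.24 and -0.26 ± 0.20. Pmvk (phosphomevalonate kinase) and Mvd (mevalonate diphosphate decarboxylase) had differences between -0.13 and 0.12. After squalene, Fdft1 (squalene synthase) differed by 0.01 ± 0.16 in DKO and -0.33 ± 0.13 in WT islets, Nsdhl (a sterol C4 demethylation enzyme) by -0.36 ± 0.18 and -0.35 ± 0.15, and Cyp51 (lanosterol demethylase) by -0.11 ± 0.17 and -0.28 ± 0.14. Each WT array at 7 months lay below each WT array at 5 weeks for Fdft1 and Nsdhl. Fdft1 was called in WT islets only in a fit of the WT arrays alone (limma adjusted p = 0.0446, against 0.230). Sqle (squalene epoxidase) differed by -0.13 ± 0.10 in DKO islets and by less than 0.01 in WT islets, and Lss (lanosterol synthase) by -0.22 ± 0.19 and -0.20 ± 0.15. Tm7sf2 (a sterol reductase), Ebp (a sterol isomerase) and Dhcr7 (the last reductase) had differences between -0.16 and 0.17. The 95% intervals of the 15 enzymes reached from -0.87 to 0.49 in DKO and from -0.68 to 0.43 in WT islets.

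The regulators were not called over time either. Srebf2 lay at 7.81, 7.79, 7.37 and 7.03 in DKO islets at 7 months, against 7.81 in both DKO arrays at 5 weeks, and at 7.65 to 7.88 in WT islets at 7 months, against 7.94 to 8.12 at 5 weeks. Its differences were -0.31 ± 0.17 in DKO and -0.27 ± 0.14 in WT islets (limma adjusted p = 0.315 and 0.396). The times did not overlap in WT islets. In DKO islets they barely parted, with 7.807 in the highest 7-month array against 7.809 in the lowest 5-week array. Insig2, the second INSIG gene, differed by 0.35 ± 0.11 in DKO islets with no overlap (adjusted p = 0.0753) and was called there with a trended robust prior (0.0436), without dim genes (0.0418) and after median centring (0.0465). In WT islets Insig2 differed by 0.12 ± 0.09. Insig1 differed by 0.16 ± 0.30 and 0.21 ± 0.25, Scap by -0.10 ± 0.09 and -0.03 ± 0.07 in DKO and WT islets. Srebf1, with -0.08 ± 0.13 in DKO islets, and the sterol carrier Stard4, with -0.07 ± 0.19 in DKO and -0.07 ± 0.15 in WT islets, were near no difference.

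In the lipogenesis group Scd1 fell in both genotypes and the other 6 genes were not called over time. Elovl6, which elongates palmitate, differed by -0.34 ± 0.14 in DKO and -0.10 ± 0.12 in WT islets. Acaca (acetyl-CoA carboxylase) differed by -0.24 ± 0.11 and 0.18 ± 0.09, and Fasn (fatty acid synthase) by -0.21 ± 0.11 in DKO islets and by less than 0.01 in WT islets. The other Acaca probe set differed by -0.14 in DKO and by 0.40 in WT islets, where its times did not overlap. Acly, which supplies cytosolic acetyl-CoA from citrate, differed by 0.15 ± 0.09 in DKO and 0.11 ± 0.07 in WT islets.

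**Figure D2:**
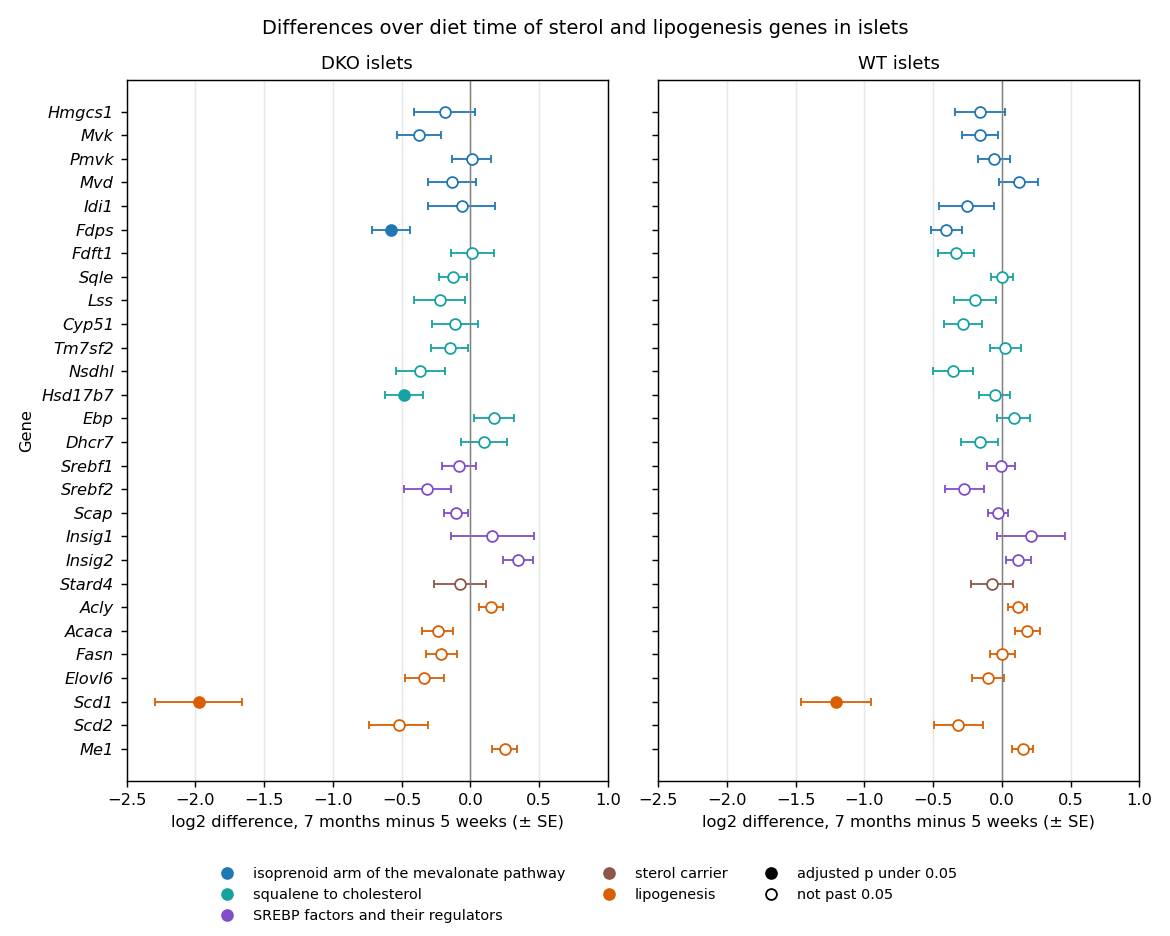
Log2 difference of 7 months minus 5 weeks (± SE) for the 28 measured genes in DKO islets (left) and WT islets (right), coloured by role, with filled points where the limma adjusted p was below 0.05. Scd1, Fdps and Hsd17b7 are filled in DKO islets and Scd1 alone in WT islets.

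Between genotypes, Me1 was the member called at 7 months. It lay at 7.54, 7.50, 7.52 and 7.61 in DKO islets, against 7.14, 7.30, 7.28 and 7.14 in WT islets, so all DKO arrays were above all WT arrays. Me1 was 0.33 ± 0.08 higher in DKO islets (1.25-fold, limma adjusted p = 0.0239), and the mean difference of its other probe set was also 0.33. At 5 weeks Me1 lay at 7.21 and 7.37 in DKO islets, against 6.95 to 7.12 in WT islets, again without overlap. The difference of 0.23 ± 0.09 was not called (limma adjusted p = 0.326). The other Me1 probe set differed by 0.33 at 5 weeks too. That probe set lay at 7.17 and 7.19 in DKO against 6.62 to 7.01 in WT islets. The 7-month call held under 17 of 24 alternatives. It was lost in a fit of the 7-month arrays alone (adjusted p = 0.0613), with the acinar score (0.0790), and without replicate 1 (0.0760) or 4 (0.0687) of WT or replicate 1 (0.0519), 3 (0.0582) or 4 (0.0664) of DKO at 7 months, with differences of 0.30 to 0.38 throughout.

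Of the 28 members 1 was higher and none lower in DKO islets at 7 months (3.57%), where 4.71% of all genes changed and 2.44% were higher. At 5 weeks 0 of 28 were called, where 0.994% of all genes were, and 3 members (10.7%) had an unadjusted limma p below 0.05, as 12.1% of all genes did. Both shares are near or below those of all genes. The median difference of the members was -0.04 at 7 months and 0.07 at 5 weeks, against 0.01 over all genes at each time. Arrays of the genotypes did not overlap for 1 member at 7 months (10.6% of all genes) and for 7 members at 5 weeks (25.0%, against 21.6% of all genes).

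None of the 15 sterol enzymes was called between genotypes by limma, and 1 at each time (6.67%) had an unadjusted p below 0.05, against 18.4% of all genes at 7 months and 12.1% at 5 weeks. The lowest adjusted p was that of Hsd17b7 at 7 months, which lay at 5.13 to 5.52 in DKO against 5.42 to 5.84 in WT islets. Its difference was -0.36 ± 0.11 (limma adjusted p = 0.0804), and it was called without dim genes (0.0484), with array weights (0.0442) and without replicate 1 of WT at 7 months (-0.44, adjusted p = 0.0487). At 5 weeks Fdft1 was below WT in both DKO arrays, at 7.89 and 8.48 against 8.51 to 8.68, with a difference of -0.42 ± 0.16 (limma adjusted p = 0.284). The 95% intervals of the 15 enzymes reached from -0.60 to 0.48 at 7 months and from -0.75 to 0.56 at 5 weeks.

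Among the regulators, Srebf2 differed between DKO and WT islets by -0.27 ± 0.14 at 7 months and by -0.23 ± 0.17 at 5 weeks (limma adjusted p = 0.338 and 0.673). Stard4, which carries cholesterol between membranes, lay at 5.61, 5.20, 4.94 and 4.82 in DKO islets at 7 months, against 5.38 to 5.72 in WT islets. It lay at 5.17 and 5.26 in DKO islets at 5 weeks, against 5.30 to 5.78 in WT islets. Its difference was -0.37 at both times, with SEs of 0.15 and 0.19, and was not called (limma adjusted p = 0.206 and 0.460); without replicate 1 of DKO at 7 months it was -0.53 (adjusted p = 0.0418). Srebf1, Scap, Insig1 and Insig2 differed by -0.16 to 0.16.

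In the lipogenesis group differences between DKO and WT islets at 5 weeks were positive for 6 of 7 genes (85.7%, against 51.8% of all genes). Their median was 0.18, and none was called by limma. At an unadjusted limma p below 0.05 there were 2 of the 7 (28.6%, against 12.1% of all genes). Scd1 was above WT in both DKO arrays at 5 weeks, with a difference of 0.77 ± 0.31 (limma adjusted p = 0.326), while its means at 7 months were 3.88 in DKO and 3.87 in WT islets. Acaca lay at 6.48, 6.82, 6.63 and 6.44 in DKO islets at 7 months against 6.76 to 6.97 in WT islets, and at 6.87 and 6.79 in DKO islets at 5 weeks against 6.59 to 6.78 in WT islets. Its difference between genotypes was thus -0.24 ± 0.09 at 7 months and 0.18 ± 0.11 at 5 weeks (limma adjusted p = 0.164 and 0.585). Without replicate 2 of DKO at 7 months the later difference was -0.32 (adjusted p = 0.0364). The other Acaca probe set differed between genotypes by -0.24 at 7 months and by 0.30 at 5 weeks. The change in the Acaca difference, -0.42 ± 0.15, had the lowest adjusted p of the members, 0.318. In that comparison, the difference at 7 months minus that at 5 weeks, 0 of 28 members were called by limma, and 0.0903% of all genes were. An unadjusted p below 0.05 was found for 2 members (7.14%) and for 10.1% of all genes. Fasn, Elovl6, Acly and Scd2 differed between genotypes by -0.07 to 0.20.

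**Figure D3:**
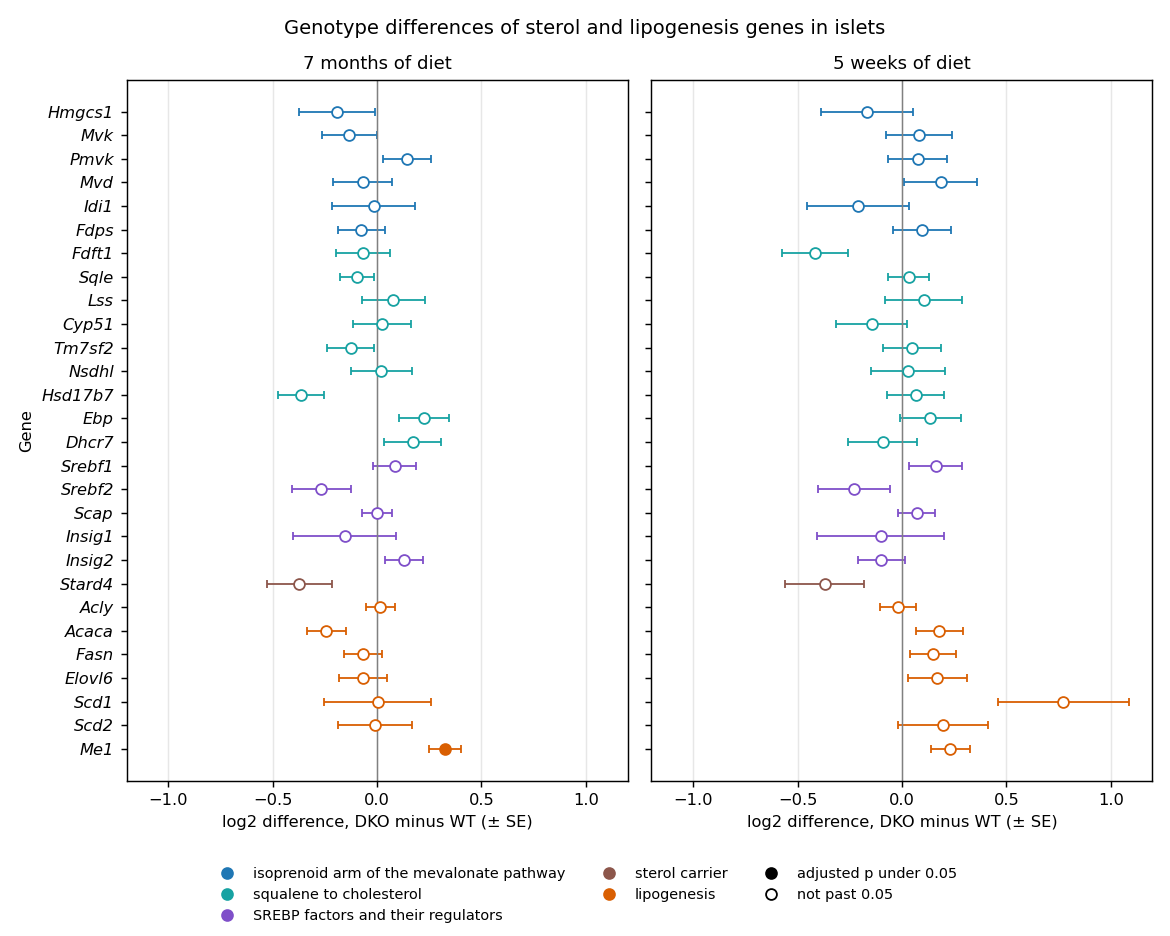
Log2 difference of DKO minus WT islets (± SE) for the 28 measured genes at 7 months (left) and at 5 weeks (right), with filled points where the limma adjusted p was below 0.05. Me1 at 7 months, at 0.33, is the single filled point.

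In several sterol genes DKO arrays at 7 months lay outside the range of the WT arrays. Insig1 lay at 10.27, 9.68, 9.53 and 8.58 in DKO islets at 7 months, against 9.49 to 9.79 in WT islets. Hmgcs1 lay at 7.58, 6.99, 6.92 and 6.47 in DKO islets against 7.02 to 7.46 in WT islets, and Idi1 at 6.12, 5.44, 5.50 and 5.00 against 5.35 to 5.78. In all 3 genes replicate 1 was the highest and replicate 4 the lowest of the DKO arrays, and both lay outside the WT range. For Hmgcs1 the DKO replicates 2 and 3, at 6.99 and 6.92, lay below the WT range as well. The means were within the spread of the DKO arrays, at 9.51 ± 0.70 and 9.67 ± 0.13 for Insig1 (SD, n = 4 each).

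Replicate 1 of DKO at 7 months was the highest of its group in 10 of the 15 sterol enzymes (66.7%), where this held for 24.7% of all genes. It exceeded replicate 4 in 10 of 15, where 52.6% of all genes did so, with a median difference of 0.38 against 0.02 over all genes. The same pair differed by 1.69 in Insig1, by 1.11 in Hmgcs1, by 1.12 in Idi1, by 0.94 in Scd2, by 0.79 in Stard4 and by 0.78 in Srebf2. At 5 weeks replicate 2 of DKO exceeded replicate 1 in 13 of 15 enzymes (86.7%, median 0.46), where 51.6% of all genes did so (median 0.01), with Sqle and Ebp the exceptions. Centred over the arrays, the enzymes had a median of 0.08, -0.18, -0.10 and -0.26 in the DKO arrays at 7 months, -0.17 to -0.03 in WT arrays at 7 months, -0.14 and 0.30 in the DKO arrays at 5 weeks, and -0.05 to 0.17 in WT arrays at 5 weeks. Single WT arrays also stood apart. Replicate 2 of WT at 5 weeks was the lowest of its group in 9 of 15 enzymes (60.0%, against 28.8% of all genes). Replicate 4 of WT at 5 weeks was the highest in 8 of 15 (53.3%, against 26.2% of all genes). Replicate 4 of WT at 7 months was also the highest in 8 of 15 (53.3%, against 21.0% of all genes). These arrays were singled out after their values were seen, so no test is given. The stellate, pericyte and fibroblast genes averaged 0.27, 0.28, 0.46 and 0.94 in the DKO arrays at 7 months in replicate order, and the macrophage genes -0.00, 0.23, 0.25 and 0.63. Acinar genes averaged 0.14, 0.41, -0.03 and 0.36 in the same arrays, and 1.27 and 0.88 in the DKO arrays at 5 weeks. In the WT arrays named above, acinar genes averaged -1.55 and 0.62 (replicates 2 and 4 at 5 weeks) and -2.40 (replicate 4 at 7 months). The part of these cell types in this spread was not tested.

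Within groups the SD was 0.43 for Scd1, higher than for 98.1% of all genes, 0.41 for Insig1, 0.32 for Idi1, 0.29 for Hmgcs1 and 0.28 for Scd2. The steadiest members were Acly, with 0.06, Scap with 0.07, Me1 with 0.08 and Sqle with 0.09. The median was 0.18 over the members and 0.20 over the sterol enzymes, against 0.16 over all genes.

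**Figure D4:**
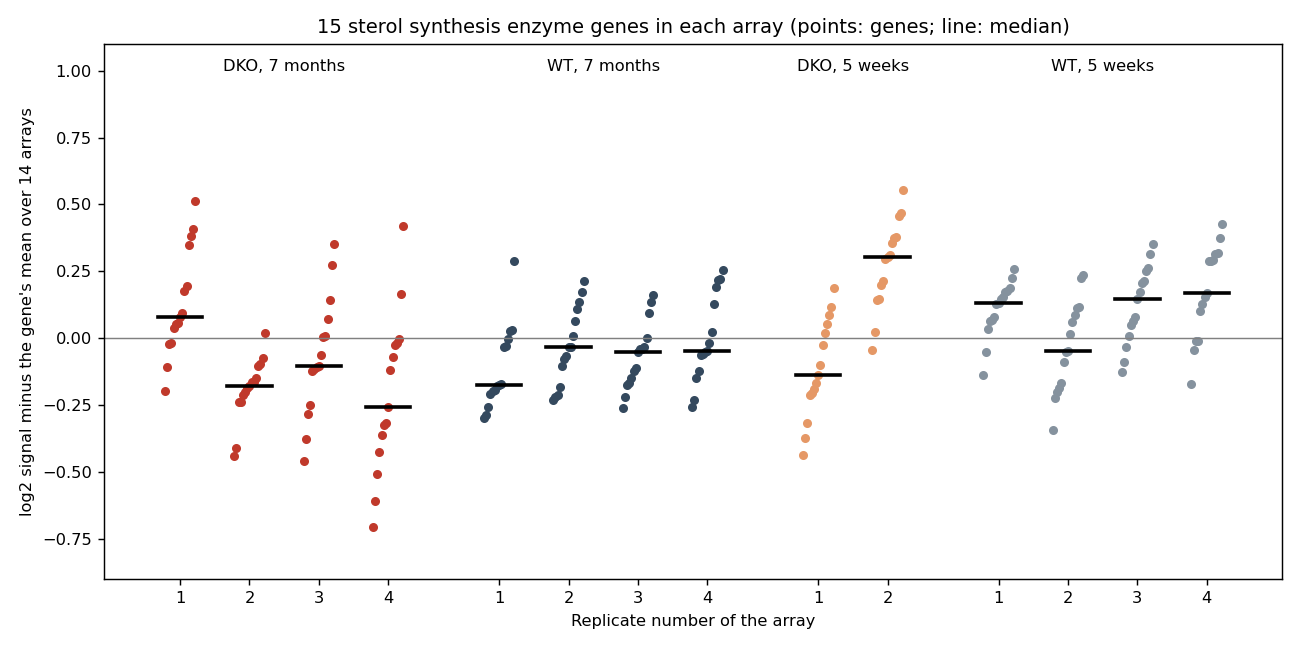
Each point is 1 of 15 sterol synthesis enzyme genes in 1 array, as log2 RMA signal minus the gene's mean over 14 arrays, and each line is the array's median. The medians lie between -0.26 and 0.08 in DKO arrays at 7 months and at -0.14 and 0.30 in the DKO arrays at 5 weeks, and between -0.17 and 0.17 in WT arrays.

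**Figure D5:**
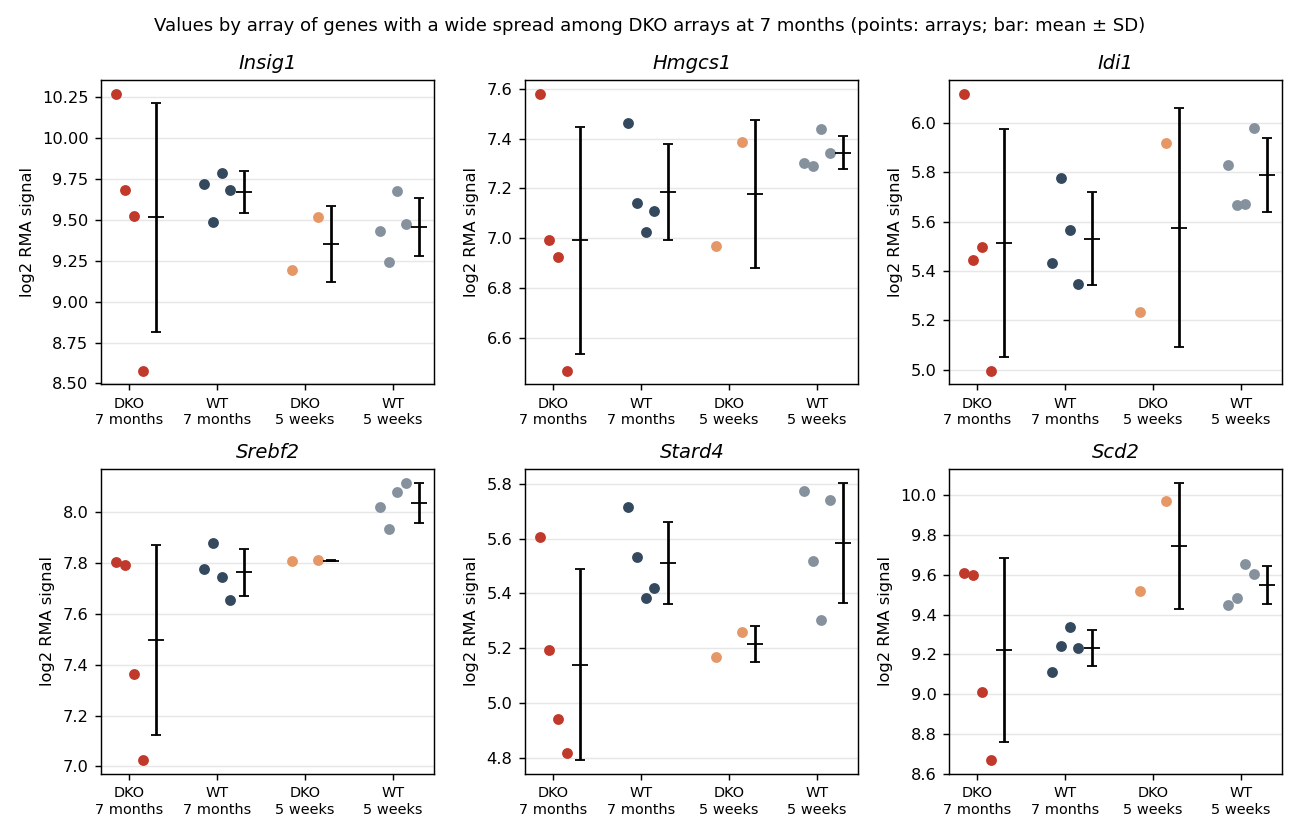
Points are single arrays and bars the mean ± SD on the log2 RMA scale, for Insig1, Hmgcs1, Idi1, Srebf2, Stard4 and Scd2 in the 4 groups (vertical axes do not start at 0). Among DKO arrays at 7 months these genes span 0.78 to 1.69, and Insig1 in WT islets at 7 months spans 9.49 to 9.79.

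Genes around the pathway were described from lists chosen with earlier results of these data known. Between genotypes Cyp39a1, an oxysterol hydroxylase of bile acid synthesis, differed most of them. It lay at 5.99, 5.13, 5.36 and 5.53 in DKO islets at 7 months, against 4.46 to 4.55 in WT islets, and at 7.12 and 6.27 in DKO islets at 5 weeks, against 5.02 to 5.63 in WT islets. Cyp39a1 was higher in DKO islets by 0.98 ± 0.20 at 7 months (1.97-fold, limma adjusted p = 0.0101), a call kept under all 24 alternatives. At 5 weeks it was higher by 1.47 ± 0.24 (2.77-fold, adjusted p = 0.00904), which was lost without replicate 1 of DKO at 5 weeks (1.05, adjusted p = 0.179). It fell by 1.19 ± 0.24 over time in DKO islets (adjusted p = 0.00772), also lost without that array (-0.76, adjusted p = 0.181) and in a fit of the DKO arrays alone (0.0874).

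Of 11 measured genes for LXR, sterol efflux and oxysterol enzymes, Cyp39a1 was the 1 called between genotypes. Of all genes 4.71% were called at 7 months and 0.994% at 5 weeks. At an unadjusted limma p below 0.05 there were 5 of the 11 at 7 months and 2 at 5 weeks. Of all genes 18.4% and 12.1% were. Over time 3 of the 11 rose in DKO islets, where 4.86% of all genes rose, by 0.40 ± 0.10 for the sterol exporter Abcg1, 0.67 ± 0.14 for Mylip (an LXR-induced ubiquitin ligase) and 0.45 ± 0.13 for Cyp7b1 (an oxysterol hydroxylase; limma adjusted p = 0.0236, 0.0117 and 0.0422). These calls were lost under 6, 2 and 14 of 24 alternatives. In WT islets Abcg1 rose by 0.37 ± 0.08 (limma adjusted p = 0.0264). Abcg1 lay at 8.07 to 8.19 in DKO islets at 7 months, against 7.72 and 7.73 at 5 weeks, and at 7.88 to 8.06 in WT islets at 7 months, against 7.40 to 7.69 at 5 weeks.

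Of 9 genes for sterol uptake, transport and esters 3 rose over time in DKO islets, where 4.86% of all genes rose. Nceh1 (a cholesteryl ester hydrolase) differed by 0.48 ± 0.12, Scarb1 (a lipoprotein receptor) by 0.50 ± 0.12 and Gramd1b (a sterol transporter) by 0.55 ± 0.14 (limma adjusted p = 0.0204, 0.0196 and 0.0253). Nceh1 also rose in WT islets, by 0.47 ± 0.09 (adjusted p = 0.0163), and was higher in DKO than in WT islets at 7 months, by 0.37 ± 0.09 (adjusted p = 0.0360). Without replicate 1 of DKO at 5 weeks none of the rises in DKO islets of Abcg1 (0.40, limma adjusted p = 0.152), Mylip (0.45, 0.222), Cyp7b1 (0.36, 0.334), Nceh1 (0.47, 0.154), Scarb1 (0.43, 0.207) and Gramd1b (0.37, 0.330) was called. The WT rise of Nceh1 was lost without replicate 2 or 4 at 5 weeks or replicate 1 at 7 months, with differences of 0.42 to 0.51 over all alternatives. That of Abcg1 was lost under 8 of 24 alternatives, with differences of 0.31 to 0.40. These were leaving out replicate 2 or 4 at 5 weeks or replicate 1, 2 or 3 at 7 months, repeated quantile normalization, the replicate block and the acinar score. The Nceh1 difference at 7 months was lost without any one of 7 arrays (replicate 2 of WT at 5 weeks, replicates 2, 3 and 4 of WT and 1, 3 and 4 of DKO at 7 months), with differences of 0.30 to 0.44. The Nceh1 call was also lost in a fit of the 7-month arrays alone, with the replicate block and with the acinar score, so under 10 of 24 alternatives. At 5 weeks Nceh1 differed between DKO and WT islets by 0.36 ± 0.12 and was not called (limma adjusted p = 0.187).

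Of 15 further genes of fatty acid synthesis, elongation and desaturation, 1 was higher in DKO islets at 7 months, against 2.44% of all genes. This was Thrsp, a lipogenic nuclear protein. It lay at 5.68, 5.55, 5.66 and 5.35 in DKO islets, against 4.80 to 5.21 in WT islets, by 0.64 ± 0.12 (1.56-fold, limma adjusted p = 0.00513), and this was kept under all 24 alternatives. At 5 weeks its means were both 5.11, and the change in the difference between the times, 0.64 ± 0.18, was not called (adjusted p = 0.207). Between genotypes at 5 weeks Fads2 had the smallest p of this list, with -0.30 ± 0.20. Besides Fads2, over time, no other gene of this list was called.

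Among 7 sterol and isoprenoid enzymes outside the members, Ggps1, which makes geranylgeranyl diphosphate, rose over time in DKO islets by 0.48 ± 0.13 (limma adjusted p = 0.0337), a call lost under 9 of 24 alternatives, among them without either DKO array at 5 weeks (adjusted p = 0.201 and 0.111) or without replicate 1, 3 or 4 of DKO at 7 months. Ggps1 was the 1 of these 7 that rose in DKO islets, where 4.86% of all genes rose. Between genotypes the smallest p was that of Lbr (a sterol reductase) at 7 months, with -0.28 ± 0.10, and of Ggps1 at 5 weeks, with -0.44 ± 0.13 (limma adjusted p = 0.137 for each). In WT islets over time it was Acat1 (a thiolase), with 0.10 ± 0.07. None of 6 genes of SREBP processing and sterol-regulated degradation was called by limma in any comparison (1 at an unadjusted p below 0.05 in each comparison of genotypes or times). The smallest p belonged to Syvn1 at 7 months (0.30 ± 0.14) and Faf2 at 5 weeks (-0.25 ± 0.10) between genotypes, and over time to Faf2 in DKO (0.29 ± 0.10) and Rnf139 in WT islets (0.19 ± 0.08). None of 7 glycerolipid and lipid droplet genes was called by limma (at an unadjusted p below 0.05, 0 at 7 months and 2 at 5 weeks between genotypes, and 1 over time in each genotype). Gpam, the first acyltransferase of triglyceride synthesis, differed over time by 0.32 ± 0.12 in DKO and 0.24 ± 0.09 in WT islets. The droplet coat gene Plin2 differed between DKO and WT islets by 0.13 ± 0.08 at 7 months and by 0.23 ± 0.10 at 5 weeks. In the interaction no gene of these lists was called; the smallest p of each list belonged to Ggps1 (0.35 ± 0.17), Faf2 (0.25 ± 0.13), Npc2 (a lysosomal sterol carrier, -0.33 ± 0.14), Nr1h3 (LXR alpha, 0.43 ± 0.19), Thrsp (0.64 ± 0.18) and Agpat2 (-0.30 ± 0.18).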

How the data were processed

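RNA of islets from 14 mice was labelled (100 ng per sample) and hybridised to whole-transcript arrays, per the labels' protocols. The authors deposited log2 signals, made by RMA per the submitters' processing notes, with no version stated there. All value columns matched a sample, with 0 left over. Of 35556 probe sets 21218 carried 1 gene symbol, 1881 several and 12457 none, and only the first kind was used. Entrez identifiers gave current symbols to 18790 genes, and 30 carry the older platform name. When a gene had several probe sets (1386 genes, among them the members Idi1, Scap, Acaca and Me1), the brightest by mean over the arrays was used. Array medians lay between 3.89 and 3.98.

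The 14 arrays entered 1 limma 3.58.1 model (lmFit, eBayes; R 4.3.3) with a mean for each group. It gave 5 comparisons: the genotypes at both times, the times in both genotypes, and the interaction. Benjamini-Hochberg adjustment ran over all 18820 genes. The p-values set the differences between group means against the spread within groups, pooled over the 14 arrays. The self-test on simulated data with 50 changed genes per fold size recovered 44% to 56% at 1.5-fold and 80% to 92% at 2-fold, in the comparisons other than the interaction, and 24% and 76% there. Promoter motifs were counted and figures drawn with Python 3.11.15 and matplotlib 3.10.9.

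All members were described by role; of the surrounding lists each called gene was named, and otherwise the gene of smallest p in each list. The genes whose single values are given for their spread were picked after their values were seen. Members and lists were chosen with earlier results of these data known. Alternatives were a fit of only the arrays compared, a trended robust prior, leaving out genes below the median of the array medians, averaging probe sets, repeated quantile normalization, median centring, the replicate number, the position number of the description labels or the acinar score as a term, array weights, and leaving out each array in turn. Where that leaves 1 DKO array at 5 weeks, its spread is assumed equal to that of the remaining groups. Some genes of the pathway were not analysed here.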

Additional observations from a re-analysis of the deposited data

Results flagged for a closer look

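In 84 sets of 4 arrays, 1 for each member and each group of 4, a single value stood apart from the rest of its group by Dixon's criterion. Fdft1 in replicate 1 of WT islets at 7 months was 8.15, while the other 3 arrays lay between 8.30 and 8.31. Chance alone flags about 1 set in 20.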

How the results depend on the processing

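No called difference of a member or of a surrounding gene turned its sign under the 24 alternatives. The 5 member calls kept their side of the threshold in 92 of 120 values, and the 16 calls of surrounding genes in 315 of 384. Of 3212 values for members not called, 11 passed the threshold and 153 turned sign without a call. Fitting only the arrays compared gave 488 genes at 7 months and 120 at 5 weeks between genotypes and 347 over time in DKO islets, with 0 members at 7 months, 1 over time in DKO and 3 in WT islets. A trended robust prior gave 282 genes at 5 weeks and 46 in the interaction. Without dim genes 2 members were called at 7 months, and 35 genes in the interaction. The acinar score gave 100 genes at 5 weeks and 918 over time in DKO islets, with 0 members at 7 months and 0 over time in WT islets. Array weights gave 786 genes over time in WT islets and 28 in the interaction, with 2 members at 7 months and 2 over time in WT islets. The replicate numbers were not shown to pair the samples, since same-numbered arrays deviated from their group means with correlations of -0.163 to 0.158. With the number as a replicate block 121 genes were called at 5 weeks, 864 over time in DKO islets and 10 in the interaction.

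The main counts were 887 genes at 7 months and 187 at 5 weeks between genotypes, 1424 over time in DKO and 446 in WT islets, and 17 in the interaction. Leaving out 1 array gave 528 to 1681 genes and 0 to 2 members at 7 months, the highest without replicate 2 of DKO, and 44 to 236 genes at 5 weeks, the lowest without replicate 1 of DKO. Over time it gave 378 to 2051 genes and 1 to 3 members in DKO islets, the fewest genes without replicate 1 and the fewest members without replicate 2 of DKO at 5 weeks, and 221 to 527 genes and 0 to 1 members in WT islets. The interaction gave 2 to 185. Median centring moved the split of higher and lower calls to 674 and 294 at 7 months (460 and 427 as reported), to 1283 and 402 over time in DKO islets (915 and 509), and to 14 and 10 in the interaction (5 and 12); repeated quantile normalization gave 9 and 12 there. The cause of these moves was not tested. In every comparison changes below 2-fold could be missed, and some of 2-fold as well. The self-test recovered 80% to 92% of 2-fold changes, and 76% in the interaction. Dim signals such as Scd1 at 7 months bound the size of a fall.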
